A study of Mus musculus with 27 samples.

Results

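Messenger RNA of 10 secreted signalling genes was followed in mouse B cells at rest, after stimulation and after malignant change. The genes were given as a set by name and found by symbol: the chemokines Ccl3, Ccl4, Ccl5, Ccl22 and Cxcl10, the tumour necrosis factor family ligands Lta, Ltb and Tnf, the interleukin Il6 and the cytokine subunit Ebi3. They are 10 of 30735 genes in the deposited expression table, and all 10 were measured. The 27 samples were B cells purified by B220, a surface antigen of B cells. Of these, 8 were non-malignant B cells from spleens of healthy mice, 4 without treatment (called resting here) and 4 treated for 2 days with LPS (lipopolysaccharide, from the outer membrane of bacteria), to which B cells respond by dividing. Each set of 4 held 1 sample each of the genotypes wt, hv, cr and co. The other 19 samples were B-cell lymphomas from mice with a c-myc Igh transgene, namely 7 hv, 7 cr, 4 co and 1 (lung lymphoma T39) titled hv but described as co. The labels do not say what hv, cr and co stand for, nor what carries the transgene in each line, and no lymphoma was wt. The lymphomas came from lung (12 samples), mesenteric lymph nodes (4 samples, all cr) and peripheral lymph nodes (3 samples, called PLN in the sample names). Whether each sample is from its own mouse is not in the labels, and the p-values cover only how these samples vary. Every comparison of lymphoma with non-malignant cells is also one of lung or node with spleen, and these cannot be told apart. The labels give no time in culture for the resting cells, so LPS and any culture time cannot be told apart either.

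Chemokines are small secreted proteins that draw cells carrying the matching receptor along a gradient, and activated B cells use them to attract T cells. Lymphotoxins and TNF are ligands of the tumour necrosis factor family that act on stromal, myeloid and lymphoid cells, and B-cell lymphotoxin is known for keeping up the architecture of the spleen and lymph nodes. Many of these genes are switched on within hours through NF-kappaB, a transcription factor that LPS activates through its receptor, and their mRNAs are short-lived.

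Levels are in TPM, each transcript's share of all transcripts, corrected for length and scaled to 1 fixed total, so levels of different genes can be set side by side. A library held about 11531400 to 32032600 read pairs (median 21464200) as implied by the steps in the values, and 3 read pairs of Il6, the gene with the lowest level at rest, equal 0.113 to 0.283 TPM depending on the library. Differences were tested on log2(TPM + 1) with limma, with p-values adjusted over all genes tested (Benjamini-Hochberg) and called below 0.05. The log2(TPM + 1) scale understates the change of low genes. In bulk samples fewer cells of a type and less RNA per cell cannot be told apart. The B-cell markers were present in every sample, with a summed level over 9 genes of 7213 to 13287 TPM in resting, 2445 to 4275 in LPS and 2300 to 10256 in lymphoma samples. Other cells were also seen in resting samples: 13 macrophage markers summed to 190 to 1059 TPM there, against 7.75 to 63.0 in LPS and 13.3 to 318 in lymphoma samples. For 9 dendritic cell markers the sums were 129 to 345, 39 to 70.0 and 28.0 to 96.3 TPM. Erythroid markers (8 genes measured) summed to 11744 to 112448 TPM at rest, 175 to 2218 after LPS and 16.4 to 1132 in lymphomas, with 8 of 8 lower than at rest in both, and 8 neutrophil markers to 14.6 to 626, 0.177 to 14.8 and 0.388 to 291 TPM. For 9 T-cell markers the sums were 27.2 to 104, 14.5 to 23.2 and 6.27 to 191.6 TPM, the highest in lung lymphoma T39. Of the tested macrophage markers, 10 of 12 were lower in LPS than in resting samples and 10 of 12 lower in lymphoma than in resting samples. Of the defining macrophage markers, Vsig4 was at 0 in every LPS sample. The part of these cells in the differences described here was not tested.

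The genes lie in a few chromosome neighbourhoods (build mm10, GRCm38, from the deposited coordinates). Ccl5 (chr11:83525778-83530518), Ccl3 (chr11:83647844-83649355) and Ccl4 (chr11:83662584-83664683) share a stretch of chromosome 11. Ltb (chr17:35194439-35196320), Tnf (chr17:35199381-35202007) and Lta (chr17:35203165-35205351) follow each other on chromosome 17, and Ebi3 (chr17:55952623-55957021) lies far off on the same chromosome. Cxcl10 (chr5:92346638-92348889) and Il6 (chr5:30013161-30019968) are on chromosome 5, and Ccl22 (chr8:94745590-94751699) is on chromosome 8. RefSeq promoters (GRCm38.p6) were matched for 8 of the 10, Ccl4 and Ccl5 not among them, and the 250 bases before each RefSeq start were searched on both strands. For Ltb and Ccl22 that start lies inside the gene as deposited, so part of their searched bases do too, and they are not shown. The kappaB motif searched was GGGNNNNNCC, a loose pattern for NF-kappaB sites that leaves the bases at N free. It was held by 7 of the 8 promoters and by 45.4% of 27025 promoters. The core of the interferon-stimulated response element, TTTCNNTTTC, was in Cxcl10 alone of the 8 and in 3.04% of all promoters. The TATA box letters TATAAA were in Lta and Tnf and in 13% of all promoters. Ccl3 held none of these motifs. Stretches of 4 promoters are shown, 2 of genes that were higher after LPS (Il6, Ebi3), 1 of a gene that was lower (Lta) and the 1 with both an interferon element and kappaB matches (Cxcl10). Each is 5′ to 3′ on the gene's strand. Capitals mark matches to the kappaB motif and, in the first capital run of Cxcl10, to the interferon element, and a run over 10 letters holds overlapping kappaB matches. The windows are chr5:30013009-30013100 (+) for Il6, chr17:55952559-55952609 (+) for Ebi3, chr17:35205397-35205447 (-) for Lta and chr5:92348963-92349122 (-) for Cxcl10.
Il6: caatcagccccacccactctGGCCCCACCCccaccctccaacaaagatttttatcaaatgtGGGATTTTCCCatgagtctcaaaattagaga
Ebi3: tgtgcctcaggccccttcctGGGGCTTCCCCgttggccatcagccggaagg
Lta: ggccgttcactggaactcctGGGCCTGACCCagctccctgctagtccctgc
Cxcl10: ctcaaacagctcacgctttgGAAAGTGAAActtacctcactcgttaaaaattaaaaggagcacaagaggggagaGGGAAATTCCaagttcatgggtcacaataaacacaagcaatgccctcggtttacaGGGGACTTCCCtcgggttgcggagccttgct
Letters that match a motif describe the sequence and do not show that a factor binds there. Genes that were higher and genes that were lower after LPS both held kappaB letters.

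LPS against resting B cells asked which of these signals a stimulated B cell makes. After 2 days of LPS, Il6, Ebi3 and Ccl22 were higher than at rest, and Ccl3, Ccl4, Ccl5, Lta and Ltb were lower, while Cxcl10 and Tnf did not pass the test. The 3 higher of 10, of which Il6 passed the filter only through the LPS samples and had to differ, stand beside 25.2% of 11999 tested genes that were higher, and the 5 lower beside 33.0% that were lower. The median log2 fold change of the 10 genes was -0.40, against -0.16 over all tested genes. In 2 genes every LPS sample lay above every resting sample (22.8% of all tested genes did), and in 5 every LPS sample lay below (29.5% did). These shares show how widespread the change was among all genes.

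Il6, a cytokine that supports plasma cells and the acute phase response, read 0.175, 0.205, 0.195 and 0.687 TPM in resting wt, cr, co and hv cells and 4.36, 1.35, 3.74 and 3.14 TPM after LPS in the same order. The groups did not overlap, and the cr sample was the lowest of the LPS group. This was a log2 fold change of 1.61 ± 0.27 (SE, limma, adjusted p = 2.7e-04, n = 4 and 4). Ebi3, which pairs with Il27 to make interleukin 27 and with Il12a to make interleukin 35, read 5.61, 8.42, 2.95 and 3.40 TPM at rest and 33.1, 10.9, 19.2 and 17.8 TPM after LPS, again in the order wt, cr, co, hv. All 4 LPS samples were above all resting samples, with the cr sample again the lowest. Its log2 fold change was 1.79 ± 0.35 (SE, limma, adjusted p = 0.00166). Of the 2 partner subunits, Il12a averaged 9.03 ± 8.99 TPM (SD, n = 4) at rest and 8.99 ± 4.04 TPM after LPS, and Il27 0.51 ± 0.27 and 0.305 ± 0.22 TPM.

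Ccl22, a chemokine that attracts T cells carrying Ccr4, read 2.43, 13.7, 1.26 and 1.26 TPM at rest (wt, cr, co, hv) and 10.7, 11.6, 13 and 11.9 TPM after LPS. The LPS samples were close together, while 1 resting sample, from cr mice, was as high as they were. In the fit its log2 fold change was 1.68 ± 0.57 (SE, limma, adjusted p = 0.0337), but an exact two-sided permutation test gave p = 0.143 and the call was lost in 6 of the 8 fits that left out 1 library (adjusted p 0.0755 to 0.126 in limma), with the wt, co or hv library of either group left out. It was also lost without both wt samples (adjusted p = 0.204) and without the samples in which the predicted gene Gm10800 took over 1% of all TPM, namely resting wt, LPS cr and LPS hv (adjusted p = 0.294). Gm10800 was at 36458 TPM in resting wt, 185796 TPM in LPS cr and 26960 TPM in LPS hv. Another predicted gene, Gm20594, held 109218 TPM (LPS cr) to 342593 TPM (mesenteric cr lymphoma T35) over all samples. The part of these 2 genes in the levels of the LPS cr sample was not tested. The resting cr sample also had the highest macrophage marker sum of its group (1059 TPM), the highest platelet sum (136 TPM), the highest Ccl5 and the highest Cxcl10. The part of other cells in its Ccl22 level was not tested.

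The 3 inflammatory chemokines of chromosome 11, which attract T cells, NK cells and monocytes, were all lower after LPS. Ccl4 read 17.7, 11.5, 11.2 and 14.6 TPM at rest (wt, cr, co, hv) and 2.70, 4.84, 3.43 and 2.38 TPM after LPS. Its log2 fold change was -1.78 ± 0.22 (SE, limma, adjusted p = 3.1e-05). Ccl5 read 20.8, 102, 32.3 and 25.7 TPM at rest and 3.95, 17.6, 5.52 and 4.67 TPM after LPS. In both groups the cr sample was far above the other 3, and the groups still did not overlap. In limma the log2 fold change was -2.30 ± 0.60 (SE, adjusted p = 0.0120), and it was -2.35 without the wt samples, where the call was lost (adjusted p = 0.0732). Ccl3 read 31.4, 14.5, 13.8 and 16.3 TPM at rest and 8.20, 12.0, 11.5 and 11.7 TPM after LPS. The wt samples were the highest at rest and the lowest after LPS, and the other 3 pairs lay within a few TPM of each other. A log2 fold change of -0.69 ± 0.25 (SE, limma, adjusted p = 0.0288) became -0.31 (adjusted p = 0.226) without the wt samples. It was also lost without the wt LPS sample alone (adjusted p = 0.0740), without the wt resting sample alone (0.0773), without the samples above 1% Gm10800 (0.0521) and, with all samples kept, under median-of-ratios scaling (0.0523) and with no filter on low values (0.0906). Macrophage and NK cell marker sums were also lower after LPS, the NK sum at 10.4 to 52.9 TPM at rest and 0.578 to 7.69 TPM after LPS, and their part in these differences was not tested.

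Cxcl10, an interferon-induced ligand of Cxcr3, read 1.45, 7.76, 1.31 and 3.10 TPM at rest (wt, cr, co, hv) and 2.26, 2.28, 2.41 and 3.20 TPM after LPS. The resting samples spanned the whole LPS range. There the log2 fold change was -0.10 ± 0.38 (SE, limma, adjusted p = 0.829), and it was 0.30 without the resting cr sample.

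Of the tumour necrosis factor family ligands, Ltb was by far the most abundant. It encodes lymphotoxin beta, the membrane subunit that anchors lymphotoxin alpha to the cell surface. Ltb read 261, 161, 231 and 198 TPM at rest (wt, cr, co, hv) and 53.3, 29.6, 52.3 and 46.5 TPM after LPS. The groups were well apart, with a log2 fold change of -2.21 ± 0.22 (SE, limma, adjusted p = 7.3e-06). Lta, the partner subunit that is also secreted alone, read 14.8, 5.88, 7.34 and 5.59 TPM at rest and 4.50, 1.19, 2.62 and 2.93 TPM after LPS. Its log2 fold change was -1.28 ± 0.33 (SE, limma, adjusted p = 0.00632), with no overlap. In both genes the wt sample was the highest and the cr sample the lowest after LPS. Tnf, the prototype of the family, read 8.52, 11.9, 5.72 and 5.63 TPM at rest and 19.6, 5.31, 14.4 and 13.2 TPM after LPS. It was higher after LPS in wt, co and hv and lower in cr, where the LPS sample was below all resting samples. With a log2 fold change of 0.59 ± 0.36 it did not pass (SE, limma, adjusted p = 0.186). It was 0.94 (adjusted p = 0.0127) without the LPS cr sample and 1.10 (adjusted p = 0.0156) without the samples in which Gm10800 took over 1% of all TPM, of which the LPS cr sample is 1. Whether Tnf passed thus turned on that library, and its direction did not.

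**Figure D1:**
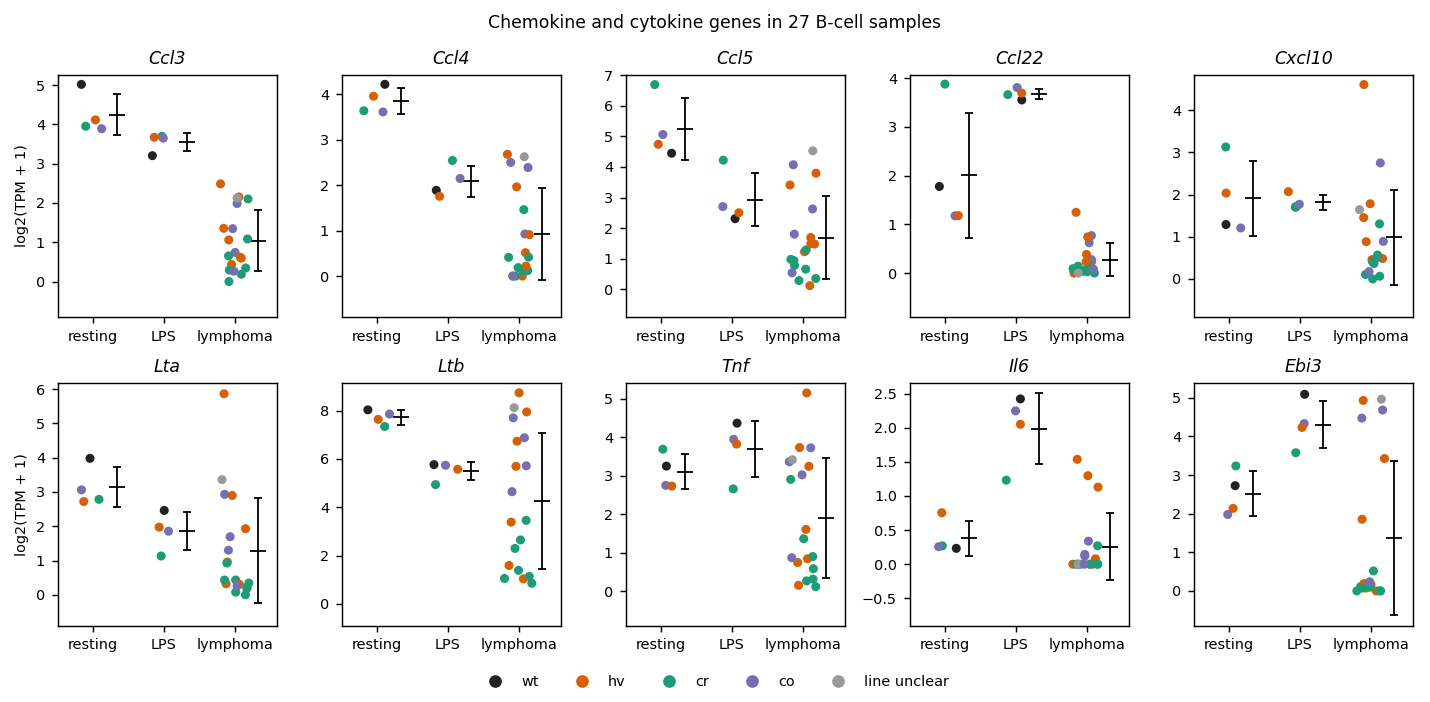
Level of each gene as log2(TPM + 1) on the vertical axis in resting, LPS and lymphoma samples; each point is 1 sample, coloured by genotype or line, and the bar beside each group is the mean with its SD (n = 4, 4 and 19). Il6 and Ebi3 were higher in all LPS than in all resting samples, Ltb was lower, and the lymphomas spread over the whole range of Ltb, from 0.808 to 425 TPM.

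Between lymphomas and resting B cells 4 of these genes differed, and tumours differed widely among themselves. Ccl3, Ccl4, Ccl5 and Ccl22 were lower in lymphomas, none of the 10 was higher, and Il6 was not tested because too few samples reached 1 TPM. The 4 lower of 9 tested stand beside 17.4% of 13239 tested genes that were lower, and 14.5% were higher, but Ccl22 passed the filter only through the resting samples and had to differ, so 3 calls can be read. The median log2 fold change of the 9 was -1.85, against -0.06 over all tested genes. In Ccl3 and Ccl4 every lymphoma lay below every resting sample, as in 4.92% of tested genes, while in none did every lymphoma lie above, as in 4.00% of tested genes. Of the 9, 6 had an unadjusted p under 0.05, as had 5693 of the 13239 tested genes.

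Ccl3 ranged from 0 to 4.60 TPM over the lymphomas (median 0.670), below the lowest resting value of 13.8 TPM. Its log2 fold change was -3.20 ± 0.40 (SE, limma, adjusted p = 1.5e-06, n = 19 and 4). Ccl4 ranged from 0 to 5.41 TPM (median 0.335), with 4 lymphomas at 0, 9 of 19 over the level of 3 read pairs (0.213 to 0.536 TPM) and a log2 fold change of -2.94 ± 0.49 (SE, limma, adjusted p = 7.2e-05). For both, the highest lymphoma was the PLN hv lymphoma T8. Ccl5 ranged from 0.0877 to 22.0 TPM (median 1.44). Lung lymphoma T39 was the 1 lymphoma that reached the resting range, and it also had the highest T-cell marker sum of all samples; the part of T cells in its Ccl5 level was not tested. Over all lymphomas the log2 fold change was -3.54 ± 0.68 (SE, limma, adjusted p = 3.1e-04).

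Ccl22 was nearly silent in lymphomas, at 0 to 1.37 TPM (median 0.102, 3 at 0), and 1 of 19, the PLN hv lymphoma T15, reached 1 TPM. Its log2 fold change was -1.73 ± 0.31 against resting cells (SE, limma, adjusted p = 1.6e-04) and -3.41 ± 0.20 against LPS cells (adjusted p = 1.4e-11). In both fits it passed the filter of 1 TPM in 4 samples through the non-malignant group in which it is high. The resting values overlapped with those of T15, and the LPS values, at 10.7 to 13 TPM, did not overlap with any lymphoma. In Cxcl10 the lymphoma range of 0 to 23.4 TPM (median 0.429) enclosed the resting range, and the log2 fold change of -0.92 ± 0.57 did not pass (SE, limma, adjusted p = 0.219). The PLN hv lymphoma T8 alone held 23.4 TPM, and the next highest, lung co lymphoma T34, held 5.74 TPM.

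The tumour necrosis factor family genes were the most uneven. Ltb ran from 0.808 TPM to 425 TPM (median 9.99), with the top in the PLN hv lymphoma T15 (425 TPM), lung lymphoma T39 (277 TPM) and lung hv lymphoma T16 (245 TPM). Those 3 and lung co lymphoma T34 (207 TPM) were within or above the resting range of 161 to 261 TPM, and the other 15 were below it. The log2 fold change of -3.45 ± 1.34 just missed the threshold (SE, limma, adjusted p = 0.0512), and the exact two-sided permutation test gave p = 0.0265 without adjustment. Lta ran from 0 to 57.2 TPM (median 0.350), with T16 alone at 57.2 TPM and the next, T39, at 9.25 TPM. The log2 fold change of -1.85 ± 0.74 missed the threshold too (SE, limma, adjusted p = 0.0585). Leaving out T16 brought both past it, Lta at -2.11 (adjusted p = 0.00396) and Ltb at -3.66 (adjusted p = 0.0346). T16 stood apart in another way: Fcer2a, the gene of the low-affinity IgE receptor of mature follicular B cells, was at 145 TPM, within the resting range of 64.3 to 199 TPM, and the other 18 lymphomas were at 11.7 TPM or less. Cr2, another gene of mature B cells, was at 34.9 TPM in T16. That was the highest of the lymphomas and below the resting range of 379 to 900 TPM. The macrophage marker sum of T16, 318 TPM, was also the highest of the lymphomas. Tnf ran from 0.0822 to 34.6 TPM (median 1.57), again with T16 on top and the PLN hv lymphoma T15 next at 12.3 TPM. The log2 fold change of -1.19 ± 0.75 did not pass (SE, limma, adjusted p = 0.229).

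Il6 was listed at 0 in 11 of 19 lymphomas and was over the level of 3 read pairs in 5. Its highest values were 1.90 TPM in the PLN hv lymphoma T15, 1.46 TPM in T16 and 1.19 TPM in the PLN hv lymphoma T8, so the 3 lymphomas at 1 TPM or more were all hv. An exact two-sided permutation test of lymphoma against resting on log2(TPM + 1) gave p = 0.747. At this depth levels under 0.113 to 0.283 TPM could not be told from 0.

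Ebi3 was either well expressed or nearly absent. It was at 30.2 TPM in T39, 29.5 TPM in the PLN hv lymphoma T15, 24.7 TPM in lung co lymphoma T30, 21.3 TPM in lung co lymphoma T34, 9.76 TPM in T16 and 2.62 TPM in the PLN hv lymphoma T8. The other 13 lymphomas held 0.432 TPM or less. The 4 highest lay within the LPS range of 10.9 to 33.1 TPM and above every resting sample. The log2 fold change over all 19 was -1.15 ± 0.96 against resting cells and did not pass (SE, limma, adjusted p = 0.371). Il12a, a partner of Ebi3, was at 1.22 to 21.2 TPM in the lymphomas, and Il27, the other, at 0 to 0.427 TPM.

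**Figure D2:**
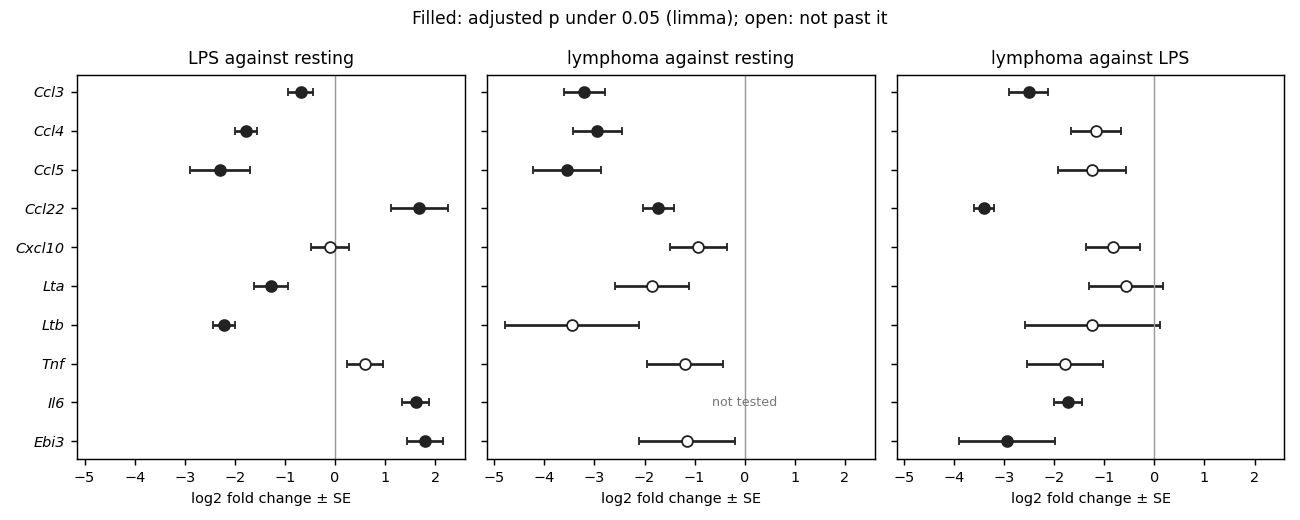
Log2 fold change of each gene with its SE (horizontal axis, log2(TPM + 1) scale) in the 3 comparisons; filled points passed an adjusted p of 0.05 in limma and open points did not. The wide bars of Ltb (SE 1.34) and Ebi3 (SE 0.96) against resting cells show the spread among lymphomas, and no gene was called higher in lymphomas.

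Lymphomas were also set against LPS-stimulated cells, the dividing non-malignant B cells of the study. The LPS samples shared with the first comparison, and the lymphomas shared with the second, mean that the 3 comparisons are not independent. Ccl22, Ccl3, Il6 and Ebi3 were lower in lymphomas than in LPS cells, and none was higher. The 4 lower of 10 tested stand beside 8.56% of 12880 tested genes that were lower, and 5.27% were higher. Ccl22 and Il6 passed the filter only through the LPS samples and had to differ, so 2 calls, Ccl3 and Ebi3, can be read. In Ccl3, and in Ccl22, every lymphoma lay below every LPS sample, as in 2.05% of tested genes, and in no member did every lymphoma lie above, as in 1.29%. The median log2 fold change of the 10 was -1.49, against 0.03 over all tested genes. Ccl22 is described above. Ccl3, at 8.20 to 12.0 TPM after LPS, had a log2 fold change of -2.51 ± 0.39 (SE, limma, adjusted p = 8.4e-05). Il6 had one of -1.73 ± 0.27 (SE, limma, adjusted p = 9.9e-05). Ebi3 was called at -2.94 ± 0.96 (SE, limma, adjusted p = 0.0425), a call that was lost whichever LPS sample was left out (adjusted p 0.0642 to 0.136), in lung lymphomas alone (0.0730) and without the samples with over 1% of Gm10800 (0.221). With all samples kept, the Ebi3 call was lost in limma with no filter on low values (adjusted p = 0.0594). It was also lost with only the lymphomas whose sample names are written separated (0.0897), a naming style described below. The other 6 were not called: Ccl4 -1.17 ± 0.49 (adjusted p = 0.119), Ccl5 -1.25 ± 0.67 (0.230), Cxcl10 -0.82 ± 0.54 (0.339), Lta -0.57 ± 0.74 (0.654), Ltb -1.24 ± 1.35 (0.584) and Tnf -1.79 ± 0.76 (0.121), each a limma log2 fold change with its SE. In exact permutation tests Ccl4 had p = 0.0351 and Tnf p = 0.0436 without adjustment.

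Among the lymphomas, the number of the 10 genes at 1 TPM or more ran from 0 in the mesenteric cr lymphoma T6 to 9 in T16 and in the PLN hv lymphoma T8. The resting samples had 9 each and the LPS samples 10 each. Lymphomas T34, T39 and PLN T15 had 8, lung co lymphoma T30 had 7, and no cr lymphoma had more than 5. Low numbers were not particular to cr: lung hv lymphomas T1, T5, T14 and T7 had 1, 3, 3 and 3, and PLN co lymphoma T2 had 1. In the cr line Ltb was at 0.808 to 9.99 TPM (median 1.62), Lta at 0 to 0.901 TPM, Ebi3 at 0 to 0.432 TPM, and Il6 was listed at 0 in 6 of 7. In the hv line Ltb was at 1.05 to 425 TPM (median 50.8) and in the co line at 24.0 to 207 TPM (median 84.0). Ebi3 was at 0 to 29.5 TPM (median 0.142) in hv and 0.159 to 24.7 TPM in co. Lta was at 0.151 to 57.2 TPM (median 0.939) in hv and 0.195 to 6.62 TPM in co. Il6 was listed at 0 in 3 of 7 hv and 1 of 4 co lymphomas. Every co lymphoma held more Ltb than every cr lymphoma, as was so for 0.873% of 12480 tested genes, and Ltb was the 1 of the 8 tested members with this pattern.

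**Figure D3:**
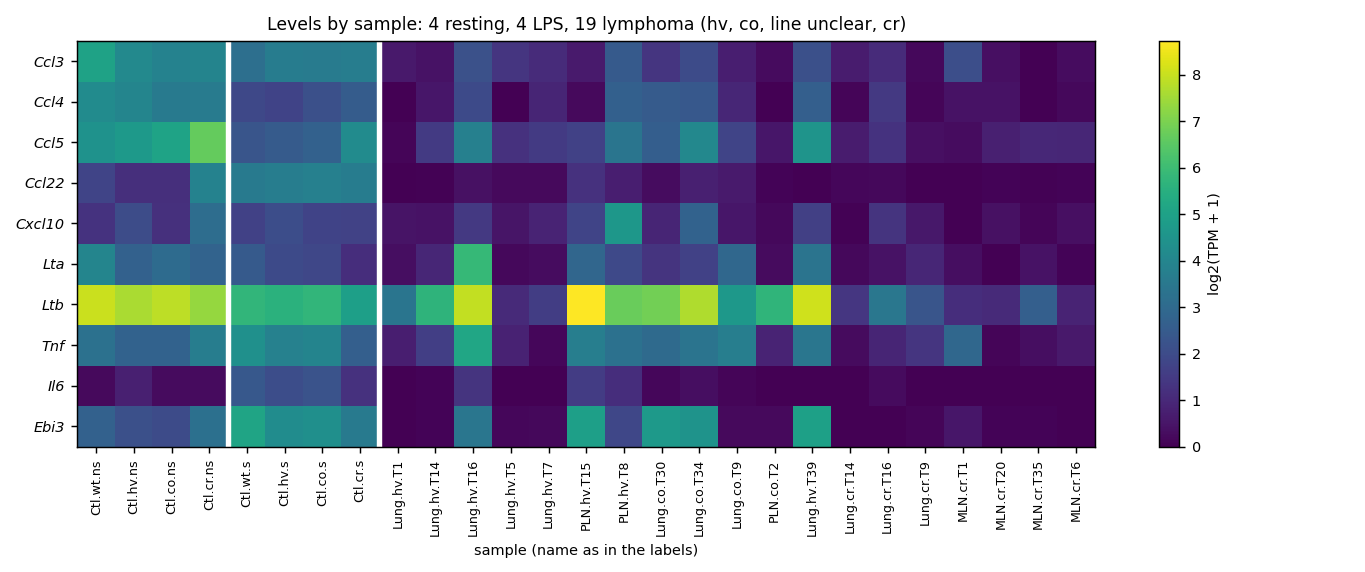
Level of each gene (rows, colour, log2(TPM + 1)) in every sample (columns): 4 resting, 4 LPS and 19 lymphoma samples ordered by line (hv, co, line unclear, cr). Ltb is the brightest row, at 161 to 261 TPM in resting samples, and the 7 cr columns at the right are dark for Ebi3, at 0.432 TPM or less. So are the columns of lung hv T1, T5, T14 and T7 (0 to 0.142 TPM), lung co T9 (0.159 TPM) and PLN co T2 (0.178 TPM).

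None of these line differences passed a test over all genes. With site (lung or node) as a term in the fit of 18 lymphomas, 0 of 8 tested members were called in hv against cr (0% of all tested genes were called), in co against hv (0%), in co against cr (0.00801%) and in node against lung (0.0160%). Ccl22 and Il6 did not pass the filter on low values there. Beside those counts of 0 in limma, unadjusted p-values under 0.05 were found for 1 member in hv against cr, 0 in co against hv, 4 in co against cr and 0 in node against lung. Over all 12480 tested genes the numbers were 1140, 429, 961 and 721. Ltb had a log2 difference of 3.42 ± 1.08 in hv against cr (SE, limma, p = 0.00567, adjusted p = 0.546) and of 4.67 ± 1.27 in co against cr (p = 0.00182, adjusted p = 0.558). The other 3 members in co against cr were Ccl5 at 1.47 ± 0.66, Tnf at 1.90 ± 0.88 and Ebi3 at 2.44 ± 1.02, each with its SE in limma and an adjusted p of 0.63 to 0.64. Between nodes and lung the 8 log2 differences ran from -0.23 (Ccl4) to 0.84 (Ltb), all smaller than their SE. Mesenteric nodes held only cr lymphomas, so that site and line cannot be told apart. Site also nearly coincides with how sample names are written, joined or separated, a possible batch. All node lymphomas have separated names, and of the fitted lung lymphomas only hv T16 and hv T7 do. With name style as a further term, node against lung gave Lta -1.74 ± 1.12, Tnf -0.41 ± 1.24 and Ltb 0.85 ± 1.80 (SE, limma).

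Neighbouring genes were compared over the 19 lymphomas, in 5 pairs with p-values adjusted over the 5. No pairs of members that lie apart were set beside them, so any part of nearness in these values was not tested. Lta and Tnf went together with Pearson's r = 0.88 on the log2 scale (permutation p = 1e-05, the smallest that 100000 resamples give, adjusted p = 5e-05) and Spearman's rho = 0.914 (permutation p = 1e-05). Without the 2 samples farthest from the median of Lta (T16 and T39), r was 0.87. The same pair had r = 0.92 in the 9 lung lymphomas whose sample names are written joined and 0.88 in the 10 whose names are written separated, a difference in naming treated as a possible batch. Tnf and Ltb had r = 0.78 (permutation p = 0.00026, adjusted p = 0.00026) and rho = 0.789 (permutation p = 0.00018), 0.71 without 2 samples, and 0.79 and 0.77 within the naming sets. Lta and Ltb had r = 0.75 (permutation p = 7e-05, adjusted p = 0.00012) and rho = 0.849 (permutation p = 1e-05), 0.75 without 2 samples, and 0.59 (permutation p = 0.089) and 0.81 within the naming sets.

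On chromosome 11, Ccl4 and Ccl5 had r = 0.90 (permutation p = 4e-05, adjusted p = 1e-04) and rho = 0.807 (permutation p = 0.00011). Without 2 samples r was 0.85, and it was 0.87 and 0.93 within the naming sets. Ccl3 and Ccl4 had r = 0.78 (permutation p = 0.0002, adjusted p = 0.00025) and rho = 0.736 (permutation p = 0.00053), 0.69 without 2 samples, and 0.72 and 0.84 within the naming sets. The lymphomas fall loosely into low and high ones, so each r was also taken on both sides of the widest gap in the first gene of the pair that leaves at least 6 lymphomas a side, as a description. On the low side r was 0.32 for Lta with Tnf (n = 10), 0.62 for Tnf with Ltb (n = 11), 0.46 for Lta with Ltb (n = 10), 0.50 for Ccl3 with Ccl4 (n = 10) and 0.58 for Ccl4 with Ccl5 (n = 13). On the high side it was 0.88 (n = 9), 0.42 (n = 8), 0.50 (n = 9), 0.45 (n = 9) and 0.69 (n = 6) in the same order. Within a side every r was positive, and it was smaller than the pooled value in all but Lta with Tnf on the high side.

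**Figure D4:**
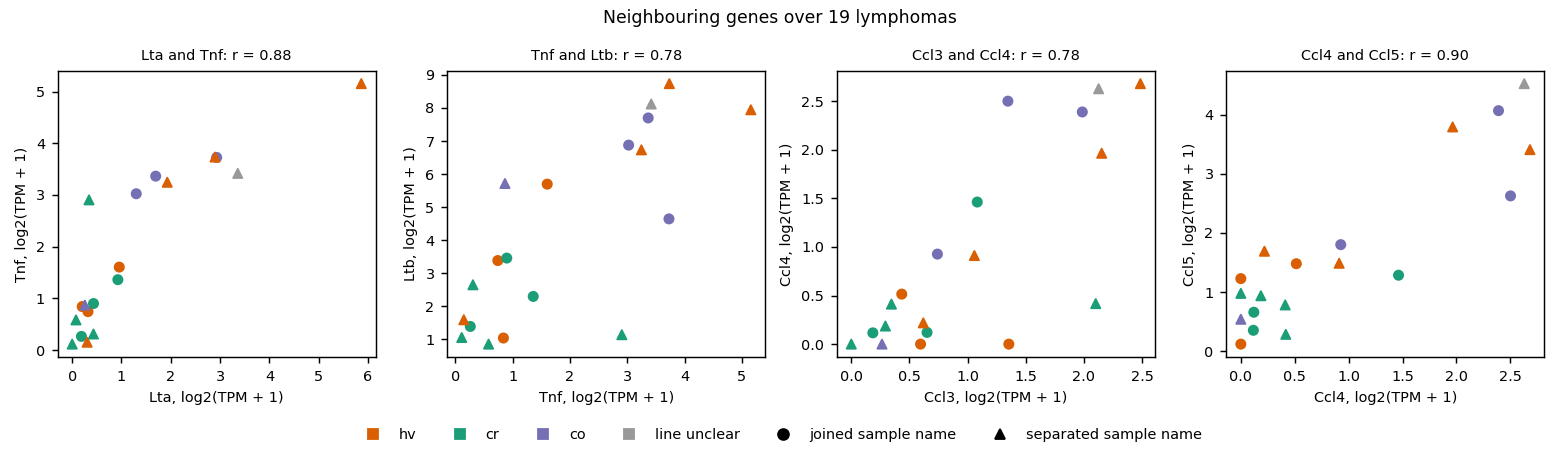
Each panel sets 1 gene against its neighbour over 19 lymphomas (both axes log2(TPM + 1)); colour is the line and shape the way the sample name is written. Lta with Tnf (r = 0.88) and Ccl4 with Ccl5 (r = 0.90) run from tumours near 0 in both genes to tumours high in both.

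The 3 genes most alike by Pearson's r over these 19 lymphomas were found for 8 members. These 8 had 1 TPM or more in at least 4 of the lymphomas. The candidates came from 10988 genes with 1 TPM or more in at least 10 lymphomas. Predicted genes, clone-named genes and pseudogenes were then left out by name. For Ltb they were Gimap3 (r = 0.92), Cd52 (0.91) and Gimap4 (0.90). For Ebi3 they were Eps15 (r = 0.97), Cd300lf (0.96) and Tcf4 (0.96). Ccl5 was most like Aif1 (r = 0.92), Gbp2b (0.91) and Erp44 (0.90), and Ccl4 most like Ccl5, Rtn4 (0.84) and Tent5c (0.84). Tnf was most like Tspan31 (r = 0.93), Rbpms (0.93) and St3gal6 (0.92), and Lta most like Tnf, Cfp (0.87) and Spata6 (0.85). Cxcl10 was most like Tent5c (r = 0.86), Tyk2 (0.86) and Siglech (0.85). Ccl3 had the lowest top values, with Ifitm2 (0.81), Armc7 (0.80) and Gabarapl1 (0.80). These are descriptions of patterns picked from many genes.

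The receptors that answer these ligands were listed as 13 genes, and the bulk samples held several of them. The part of cells other than B cells in these levels was not tested. Tnfrsf14, which binds lymphotoxin alpha and other ligands, was the most abundant at rest, at 68.0 ± 34.6 TPM (SD, n = 4), followed by Il27ra, the receptor of interleukin 27, at 23.5 ± 5.60 TPM and Il6st, the shared signal chain of the interleukin 6 family, at 19.0 ± 4.08 TPM. Ltbr, the receptor of membrane lymphotoxin, was low throughout, at 0.329 to 3.69 TPM at rest and 0 to 2.28 TPM in lymphomas. For all list counts of the main fits that follow, the shares of all tested genes called are those given above, 33.0% lower and 25.2% higher after LPS, 17.4% and 14.5% in lymphomas against resting cells, and 8.56% and 5.27% in lymphomas against LPS cells. After LPS, 9 of 11 tested receptors were lower than at rest and none was higher, with a median log2 fold change of -1.21 against -0.16 over all tested genes. The largest were Ccr3 at -3.25, Tnfrsf14 at -2.85 and Tnfrsf1a, the main TNF receptor, at -1.88. Ccr3, Tnfrsf1a, Ccr1 and Cxcr3 passed the filter only through the resting samples and had to differ. Their highest LPS values were 0.041, 0.619, 0.715 and 0.871 TPM, and the 11 tested include them. The second TNF receptor, Tnfrsf1b, averaged 16 ± 5.32 TPM at rest and 14.2 ± 3.80 TPM after LPS (log2 fold change -0.15, limma adjusted p = 0.608). In lymphomas against resting cells 7 of 12 tested receptors were lower and none higher, led by Ccr3 (-3.24), Il27ra (-2.36) and Tnfrsf14 (-2.10). Ccr3, at 0.296 TPM or less in lymphomas, again passed the filter only through the resting samples and had to differ. Against LPS cells 0 of 9 were called, and no receptor had an unadjusted limma p under 0.05 other than Tnfrsf1b (p = 0.00949). Single lymphomas were far from the rest here as well: Cxcr3, the receptor of Cxcl10, ran from 0 to 67.5 TPM with a median of 0.161 TPM, and Ccr1 from 0.161 to 59.0 TPM with a median of 0.894 TPM. Of the 5 partner subunits and processing enzymes, 4 were tested after LPS and 2 were lower, Dpp4 (-1.27), a peptidase that trims chemokines, and Adam10 (-1.26), a protease that sheds membrane proteins. In lymphomas Dpp4 was lower than at rest (-2.03), and Adam10 was higher than in LPS cells (0.77).

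The other chemokines, cytokines and ligands of the family were read the same way. Of 27 other chemokines, 10 were tested after LPS, 4 were lower and none higher, with Ppbp (-3.86), Ccl6 (-2.59) and Cxcl16 (-2.10) the largest. In lymphomas against resting cells 14 were tested, 6 were lower and none higher, with Ppbp (-4.05), Pf4 (-2.61) and Cxcl16 (-2.30) the largest. Ppbp was at 0.562 TPM or less after LPS and 0.731 TPM or less in lymphomas. In both fits it passed the filter only through the resting samples and had to differ. Ccl6, at 1.96 to 11.4 TPM at rest and 0 to 1.27 TPM after LPS, likewise passed after LPS only through the resting samples. The 4 lower after LPS include both genes. Ppbp and Pf4 are platelet chemokines, and the sum of the 5 platelet markers, which include both, was 24.7 to 136 TPM at rest, 1.22 to 9.07 after LPS and 0.461 to 7.71 in lymphomas. Of 31 other cytokines, 10 were tested after LPS, 2 were higher and 6 lower. The higher ones were Il10, an anti-inflammatory cytokine of activated B cells, which went from 1.18 ± 0.74 to 19.5 ± 7.16 TPM (SD, n = 4 and 4; log2 fold change 3.23), and Mif, a macrophage migration factor, from 179 ± 27 to 1223 ± 170 TPM (2.77). Il18 (-2.98), Il1b (-2.78) and Il12b (-1.77), all better known from myeloid cells, were lower. Il12b, at 0.557 TPM or less after LPS, passed the filter only through the resting samples and had to differ. In lymphomas Mif was above resting cells (1.86) and below LPS cells (-0.90), and Il10, at 0 to 43.4 TPM (median 0.0909), was below LPS cells (-3.06). Of 15 other ligands of the tumour necrosis factor family, 2 were tested after LPS: Tnfsf9, which costimulates T cells, was higher (1.45) and Tnfsf10, a death ligand, was lower (-1.09). Tnfsf9 was at 0.665 TPM or less at rest and Tnfsf10 at 0.674 TPM or less after LPS. Each passed the filter only through the group in which it is high and had to differ. In lymphomas Tnfsf9 was below LPS cells (-1.33), and against resting cells 0 of 3 tested were called.

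Regulators of these genes were read in the same fits. All 12 NF-kappaB subunits and inhibitors were tested. After LPS 1 was higher, the inhibitor Nfkbia (0.91), a share below the 25.2% of all tested genes that were higher. The 4 lower, led by Rel (-2.14), Tnfaip3 (-1.99) and Relb (-0.86), were a share near the 33.0% of all tested genes that were lower. Under median-of-ratios scaling 3 were higher and 6 lower. Without the samples above 1% Gm10800 3 were higher and 2 lower, and the list median moved from -0.40 to 0.078. In lymphomas 6 of 12 were lower than at rest and none higher, led by Tnfaip3 (-2.56), Nfkb2 (-2.35) and Rel (-2.17), with a list median of -1.56 against -0.06 over all tested genes. Against LPS cells Nfkbia (-1.66) and Nfkbib (-0.75) were lower. Among 9 factors that destroy or protect cytokine mRNAs, 2 were higher after LPS (Khsrp 0.96, Elavl1 0.65) and 6 lower, led by Zfp36 (-3.93), Zfp36l2 (-2.27) and Zfp36l1 (-2.08). Zfp36, which marks Tnf and other AU-rich mRNAs for decay, fell from 242 ± 70.3 TPM at rest to 14.9 ± 4.39 TPM after LPS (SD, n = 4 and 4), without overlap. In lymphomas it was below resting (-1.87) and above LPS cells (2.06). Of 11 interferon regulatory factors and STATs, 8 were lower after LPS and 6 lower in lymphomas than at rest, with none higher in either. Irf7 was the largest in both, at -3.61 and -4.33. Against LPS cells 1 of 11 was lower, Irf4 (-1.02). Without the samples above 1% Gm10800, which for lymphomas also drops the mesenteric cr lymphoma T6, 4 of 11 tested receptors, 2 other cytokines, 3 interferon factors and STATs and 4 NF-kappaB genes were lower in lymphomas than at rest, 5 of 6 tested receptors were lower after LPS, 1 interferon factor or STAT was higher and 6 were lower after LPS, and against LPS cells no gene of the 8 lists was called. Calls over all genes fell there too. Against LPS cells, with only the wt and co LPS samples left, they went from 679 higher and 1103 lower to 93 and 340. In lymphomas against resting cells they went from 1921 higher and 2308 lower to 1397 and 1349. After LPS they went from 3026 higher and 3955 lower to 3071 and 2460. Neither other scaling turned a list that had calls in 1 direction into the opposite one.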

How the data were processed

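RNA of B220-purified B cells was measured in 27 samples, in paired-end stranded libraries depleted of ribosomal RNA (per the labels' protocols). FastQC, kallisto 0.43 and the build mm10 (GRCm38) are named per the submitters' processing notes. Sources used here give neither the annotation nor the strand setting, so reads of overlapping or antisense genes cannot be told apart. TPM of 88198 transcripts were deposited. These were summed to 30735 genes, of which 740 had no symbol. TPM keeps no depth by itself, and depth was read from steps in TPM times effective length (61.6 to 75.8% of low values whole within 0.02). The floor of 3 read pairs covers counting error only.

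Groups came from the labels. The members and gene lists were chosen with earlier results of these data known. A gene entered a fit if 4 or more of its samples reached 1 TPM. Values of log2(TPM + 1) went into limma 3.58.1, with its trend and robust options, in R 4.3.3 (version 1.17.8 of data.table). P-values were Benjamini-Hochberg adjusted over all tested genes with a threshold of 0.05. Each main comparison was fitted on its own groups, and lines and sites on 18 lymphomas, without T39. Exact permutation tests, correlations and figures used scipy 1.17.1, matplotlib 3.10.9, numpy 2.4.6 and pandas 2.3.3 under Python 3.11.15. The fits were tested on simulated data. Named genes were all 10 members, up to 3 called genes each way with the largest change per list and comparison, the receptors, and the 3 genes most alike to a member. 1 listed receptor is not reported here by name. Ltb in co against cr lymphomas, Fcer2a, Cr2, Il12a, Il27 and the levels of Gm10800 and Gm20594 were singled out after their values were seen. Alternatives covered the pseudocount, the low-value filter, scaling, the transcript used, batch by name style, and leaving out libraries.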

Additional observations from a re-analysis of the deposited data

Results flagged for a closer look

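In 6 of 50 combinations of a gene and a group, 1 sample lay far from the others of its group on the log2(TPM + 1) scale by Dixon's 95% limit, which chance alone passes in about 1 in 20. Il6 in resting hv cells was 0.687 TPM, and the other 3 resting samples were at 0.175 to 0.205 TPM. Ccl3 in the wt LPS sample was 8.20 TPM, below the other 3 at 11.5 to 12.0 TPM. Cxcl10 in the PLN hv lymphoma T8 was 23.4 TPM, and the other 6 hv lymphomas were at 0.337 to 2.44 TPM. That tumour also had the highest Ccl3 and Ccl4 of all lymphomas and the highest neutrophil (291 TPM) and NK cell (27.9 TPM) marker sums among lymphomas, whose part was not tested. Among the 7 cr lymphomas, Ccl4 in lung cr T16 was 1.76 TPM (others 0 to 0.335) and Il6 in the same tumour was 0.206 TPM (others at 0). Ebi3 in the mesenteric cr lymphoma T1 was 0.432 TPM (others 0 to 0.0811). The level of 3 read pairs is 0.113 to 0.283 TPM for Il6 and 0.103 to 0.260 TPM for Ebi3, depending on the library.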

How the results depend on the processing

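Of the single-gene values, 819 kept direction and side of the threshold over the alternatives fitted with limma, 24 lost a call, 13 gained one and 20 turned sign. After LPS the number of called members was 8; it was 4 without the wt samples and 5 to 8 when 1 sample was left out (5 without the wt LPS sample). The same-genotype samples did not deviate together in every pair (correlations 0.058, 0.222, 0.340 and 0.063 for wt, cr, co and hv), and with genotype as a replicate block 7 members were called, Ccl22 being lost (adjusted p = 0.0891). Cxcl10 ran from -0.34 to 0.30 when 1 sample was left out, positive without the resting cr sample. Against LPS cells, 2 members were called in lymphomas without samples above 1% Gm10800, and 3 when 1 LPS sample was left out. Without the samples above 1% Gm10800, calls over all genes in that comparison fell from 679 higher and 1103 lower to 93 and 340. Against resting cells 4 were called whichever resting sample was left out. Lta gained a call against resting cells under a pseudocount of 0.1 (-3.01, adjusted p = 0.0494), and Lta and Ltb under median-of-ratios scaling (0.0443 and 0.0385), after rescaling TPM without Gm20594, Gm10800 and haemoglobin genes (0.0364 and 0.0390) and in lymphomas with joined names (0.00186 and 0.0189). The correlation of Lta with Ltb was 0.59 in lymphomas with joined names. Over all genes, that rescaling moved the lymphoma calls from 1921 higher and 2308 lower to 1514 and 3227, and the median of all genes from -0.06 to -0.20; after LPS the median moved from -0.16 to -0.30. Signs turned in uncalled line and site differences. In co against hv, with 1 co lymphoma left out in turn, Ccl3 ran from -0.46 to 0.18 (the latter without PLN co T2), Ccl5 from -0.23 (without co T34) to 1.06, Cxcl10 from -0.95 to 0.20 (without T2) and Lta from -0.697 to 0.26 (without T2). Ccl3 was 0.24 in lung alone, and Lta 0.30 with name style as a term, 0.46 without hv T16 and 0.45 in lung alone. In node against lung, Ccl3 was 0.031 under median-of-ratios scaling, 0.047 without T16, 0.43 in hv alone and 0.045 without peripheral nodes, Ccl5 0.055 without T16 and 0.93 in hv alone, Lta 0.21 without T16, Ltb -0.96 in cr alone and -0.96 without peripheral nodes, and Tnf -0.41 and Ebi3 -0.070 with name style as a term. The settings that leave out T16, T2, T34 or a kind of node, and the list counts under other settings, were chosen after seeing the data. The cause of these shifts was not tested. Depth limits what can be said of Il6, Ccl4, Ccl22 and Ebi3 in tumours near 0.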
